A study of Mus musculus with 6 samples.

Results

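A list of 40 genes of plasma proteins and liver metabolism was followed in mouse pancreatic buds treated with inhibitors of BET proteins. The members were chosen by symbol with earlier results of these data known, and 38 of the 40 had a named row among the 24010 genes of the arrays. Shares of the members set beside shares of all genes are therefore descriptions, not independent support. Serpina1a and Tf were not analysed here, since no row carried either name; the mouse transferrin gene is listed as Trf and had a row. Dorsal buds came from embryos of stage E11.5 and were cultured for 24 h, and each array held the RNA of a pool of 10 buds. There were 6 arrays in 3 groups of 2: buds with I-BET151 at 500 nM, buds with JQ1 at 100 nM, and control buds (CTRL) with 0.1% DMSO. No strain, genotype, sex or litter is given in the labels, and a pool mixes all cell types of the bud. The labels do not say whether pools of one group were cultured separately, and a p-value therefore reflects only how far these pools lie apart, which may be technical.

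Both compounds occupy the bromodomains of BET proteins, which bind acetylated histones and help to start transcript elongation. The genes followed here are best known from the liver, whose hepatocytes secrete most plasma proteins, and many of them are classical targets of the hepatocyte nuclear factors: HNF1 and HNF4 proteins, the forkhead factors FOXA1 to FOXA3 and C/EBP proteins. The pancreas and the liver arise from neighbouring foregut endoderm and share several of these factors, and the yolk sac endoderm makes many of the same proteins. Some members are also used outside these tissues: Ttr and Rbp4 in hormone-producing islet cells, and Apoe in macrophages and glia.

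Values are intensities normalized by the authors with RMA, which corrects background, gives all arrays the same distribution of probe signals and summarises the probes of a gene, deposited as whole numbers on a linear scale. The median intensity of an array lay between 54 and 57. Changes are log2 ratios of inhibitor over control with the SE of a limma fit to all 6 arrays, and a gene was called at a Benjamini-Hochberg adjusted p under 0.05 over all 24010 genes. Hexim1, a gene commonly used as a marker of BET inhibition, was measured at 982 and 1053 with I-BET151 and at 1263 and 1304 with JQ1, against 625 and 656 in CTRL. It rose under both inhibitors (limma adjusted p = 0.0432 and 0.0143).

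The pools of the inhibitor groups stood apart in these genes. Albumin (Alb), the main plasma protein of the fetal and adult liver, was measured at 35 in I-BET151 pool 1 and 421 in I-BET151 pool 2, at 43 in JQ1 pool 1 and 753 in JQ1 pool 2, and at 179 and 58 in CTRL pools 1 and 2. The 12.03-fold and 17.5-fold differences between the pools of one inhibitor were the largest in favour of pool 2 of all 24010 genes. Alpha-fetoprotein (Afp), the fetal albumin of liver and yolk sac, was at 81 and 383 with I-BET151, at 74 and 522 with JQ1, and at 388 and 279 in CTRL. In both genes pool 2 of each inhibitor was high and pool 1 low, with the controls in between or beside the high pools.

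Other members shared this split. Ahsg, which encodes the carrier protein fetuin-A, was at 26 and 83 with I-BET151 and at 24 and 94 with JQ1, against 33 and 25 in CTRL. Itih2, a heavy chain of the inter-alpha-trypsin inhibitor, was at 35 and 87 with I-BET151 and at 31 and 77 with JQ1, against 65 and 63 in CTRL. Apoa1, the main protein of high-density lipoprotein, was at 45 and 92 with I-BET151 and at 55 and 117 with JQ1, against 73 and 54 in CTRL. Alb, Afp, Ahsg, Itih2 and Apoa1 were the members at least 2-fold higher in pool 2 than in pool 1 under I-BET151, and they were also those under JQ1. Among all 24010 genes only 6 met this condition under both inhibitors: these 5 members and Serpinf2, the alpha-2-antiplasmin gene of the list of other liver genes, at 55 and 116 with I-BET151, 53 and 125 with JQ1, and 182 and 162 in CTRL.

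The split reached well beyond the genes that differed most. In both inhibitor groups 27 of 38 members (71.1%) were higher in pool 2, against 18.6% of all genes. With I-BET151 34 members were higher in pool 2, 3 in pool 1 and 1 was equal. With JQ1 29 were higher in pool 2, 4 in pool 1 and 5 were equal, whereas 16 were higher in CTRL pool 2 and 18 in CTRL pool 1. Between pools of one group, 13.2% of members differed by 2-fold or more with I-BET151 and 13.2% with JQ1, against 0.258% and 0.254% of all genes, and 2.63% did so in CTRL, against 0.162% of all genes. Across the 38 members, the log2 difference between pools under I-BET151 correlated with that under JQ1 at r = 0.96 (Spearman's rho 0.84), and at r = 0.78 over the 33 members outside the 5 named above. Between the inhibitors and CTRL the members' pool differences correlated at r = -0.79 for I-BET151 and -0.78 for JQ1 (-0.44 and -0.43 over the 33). Pool numbers are not known to pair arrays across groups, so the sign of each correlation depends on the numbering. Across all genes the correlation between the inhibitors was -0.04, and those with CTRL were -0.016 and -0.026. These are descriptions across genes measured on the same 6 arrays, and genes are not independent replicates.

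**Figure D1:**
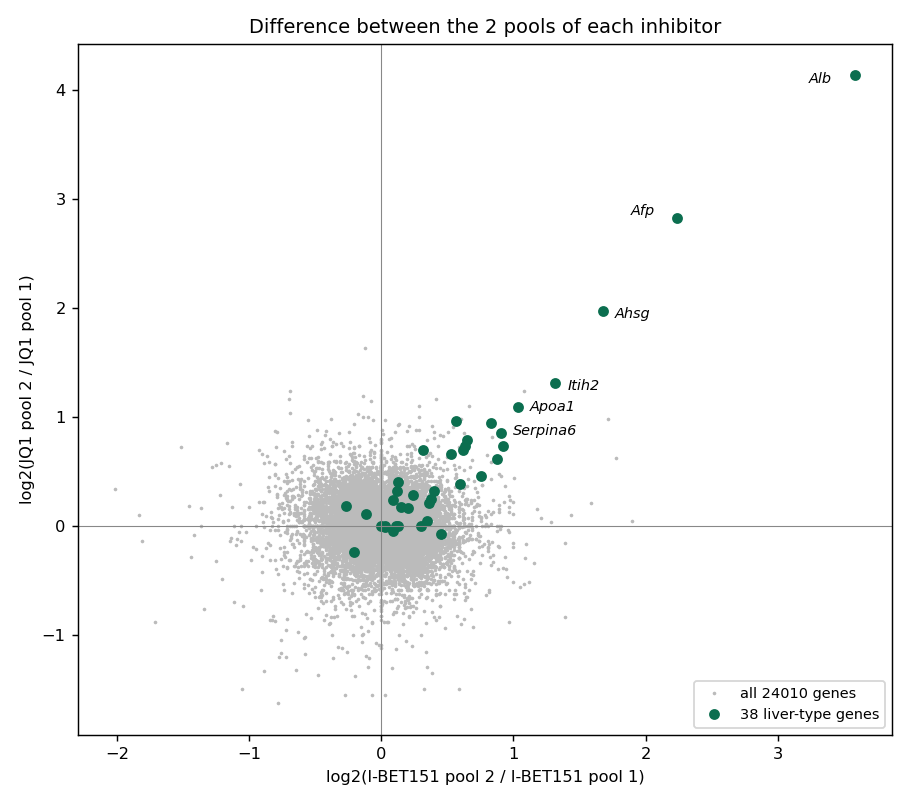
The log2 ratio of pool 2 over pool 1 is plotted for JQ1 (vertical axis) against I-BET151 (horizontal axis), with a grey point for each of 24010 genes and a green point for each of the 38 liver-type genes. Alb lies far from all other genes in the upper right at 3.59 and 4.13, followed by Afp at 2.24 and 2.82, and most members lie to the upper right of the origin.

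The summed level of 9 hepatoblast and hepatocyte markers, all of them members, holds the Alb and Afp values themselves: 420 and 1307 with I-BET151, 417 and 1850 with JQ1, and 1141 and 848 in CTRL. Without Alb and Afp the other 7 summed to 304 and 503 with I-BET151, 300 and 575 with JQ1, and 574 and 511 in CTRL, a smaller split. No marker was at 0, since the lowest value on the arrays is 5. Of these markers, Alb, Afp, Ahsg, Apoa1, Apoa2, Fgb and Hpx were higher in pool 2 of both inhibitors. Cps1 and F2 were not, and were dim at 23 to 32 on every array. Summed markers of other cell types, taken without the members, differed far less between the pools. Leaving out members such as Afp takes part of any split out of these sums. The 48 other liver genes outside the members, Serpinf2 among them, also split little in sum. They summed to 2236 and 2427 with I-BET151, 1960 and 2276 with JQ1, and 3548 and 3704 in CTRL. Erythroid markers summed over 9 genes to 9047 and 9420 with I-BET151, 9730 and 9721 with JQ1, and 9300 and 10110 in CTRL. Most of each sum came from Hbb-y, at 6181 to 6727 on all arrays. Single erythroid markers went both ways between pools, such as Klf1 at 43 and 66 with I-BET151 and Alas2 at 458 and 393 with JQ1. The 5 yolk sac endoderm markers that are not members summed to 226 and 212, 235 and 215, and 182 and 198, and the 6 gut markers that are not members to 132 and 121, 122 and 136, and 138 and 138. The 7 markers of pancreatic progenitor epithelium lay between 6675 and 7463 on all arrays. Several marker lists differed between inhibitor and control arrays. The yolk sac sum was above both controls on all 4 inhibitor arrays through Lrp2 alone. Lrp2 was at 110 and 95 with I-BET151 and 113 and 94 with JQ1, against 57 and 71 in CTRL (not called). Without Lrp2 the yolk sac sum was not above the controls on any inhibitor array. The gut sum was below both controls on all 4 inhibitor arrays, through Vil1. Vil1 fell under both inhibitors, at 17 and 16 with I-BET151 and 18 and 19 with JQ1, against 26 and 28 in CTRL. Without Vil1 the gut sum overlapped the controls. The 7 endothelial markers summed to 3919 and 4228 with I-BET151 and to 3645 and 3744 with JQ1, against 5524 and 5642 in CTRL, and mesenchyme markers were lower likewise. Their part in the results on the members, and what made the pools differ, was not tested. In pooled buds, fewer cells of a type and less RNA per cell cannot be told apart.

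**Figure D2:**
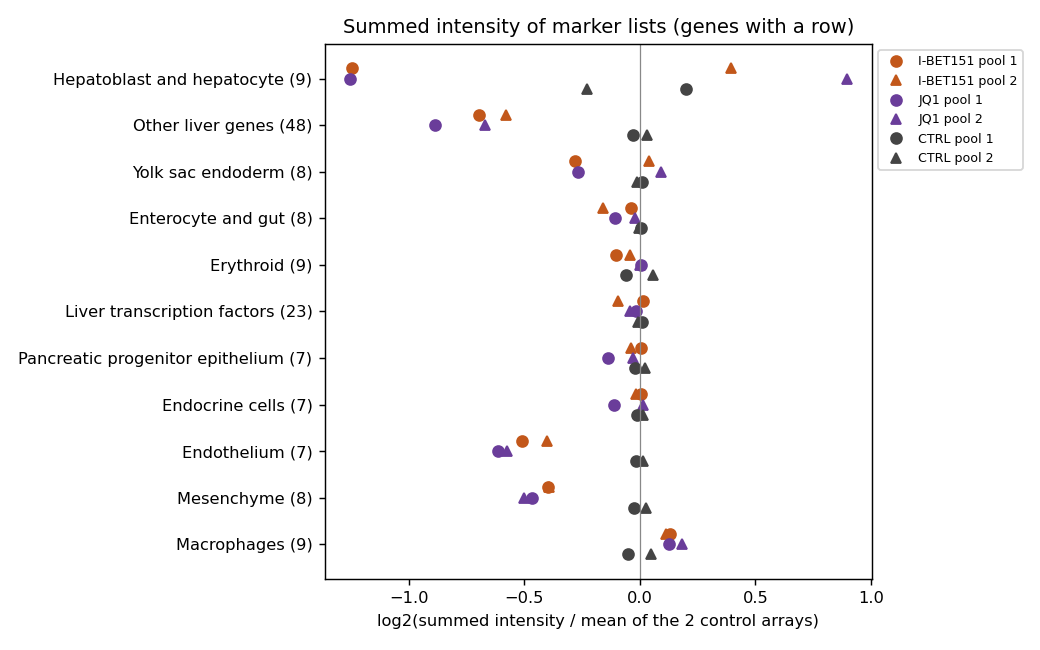
Each row is a list of marker genes, with the number of genes measured, and each point gives the log2 ratio of the list's summed intensity on an array to the mean of both control arrays (circles pool 1, triangles pool 2). The hepatoblast and hepatocyte row spreads widely between pools, while the other liver genes, endothelium and mesenchyme rows have all 4 inhibitor arrays below both controls.

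Against this spread, some members were lower on all 4 inhibitor arrays. Under I-BET151 1 of 38 members (2.63%) was called, F10, which fell, where 1.13% of all genes were called, 0.87% lower and 0.262% higher. Under JQ1 6 members (15.8%) were called, where 3.8% of all genes were called. Serpina6, A1cf, Ambp, Apoc1 and F10 fell, against 2.67% of genes called lower, and Apoe rose, against 1.13% called higher. Both comparisons share the CTRL arrays, so their calls are not independent. The same 6 were called for the mean of both inhibitors, where 4.92% of genes were called, 3.33% lower and 1.59% higher. By size alone, a change of 2-fold or more with no overlap between arrays, 4 members passed under I-BET151 (A1cf, Fgb, Serpina1b and Serpina6), against 0.621% of all genes. Under JQ1 and for the mean of both inhibitors 6 passed, these 4 with Ambp and Serpina1d, against 1.03% and 0.733% of all genes. The median log2 change of the 38 members was -0.17 under I-BET151 and -0.16 under JQ1, against 0.00 and 0.02 for all genes. These medians hide the pools: relative to the mean of the controls, the members' median was -0.37 and -0.07 on I-BET151 arrays 1 and 2, and -0.35 and -0.02 on JQ1 arrays 1 and 2.

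All 4 inhibitor arrays lay below both controls for 14 members (36.8%), against 14.9% of all genes. These were Serpina6, Serpina1b, Serpina1d, Fgb, F2, F10, Proc, Rbp4, Trf, Ambp, Vtn, Apoc1, A1cf and Mttp. All 4 lay above both controls for Apoe and Hpx (5.26%, against 14.4% of all genes). When any 1 of the 6 arrays was left out, whether I-BET151 pool 1 or 2, JQ1 pool 1 or 2, or CTRL pool 1 or 2, no member and no gene at all was called in limma. With only the arrays of the groups compared, 0 members and 0 of all genes were called under I-BET151 and under JQ1. When any 1 array was left out and dim genes (under the median intensity) were dropped as well, 19 members remained. Their median log2 change then ranged from -0.87 to -0.24 under I-BET151 and from -0.93 to -0.28 under JQ1.

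**Figure D3:**
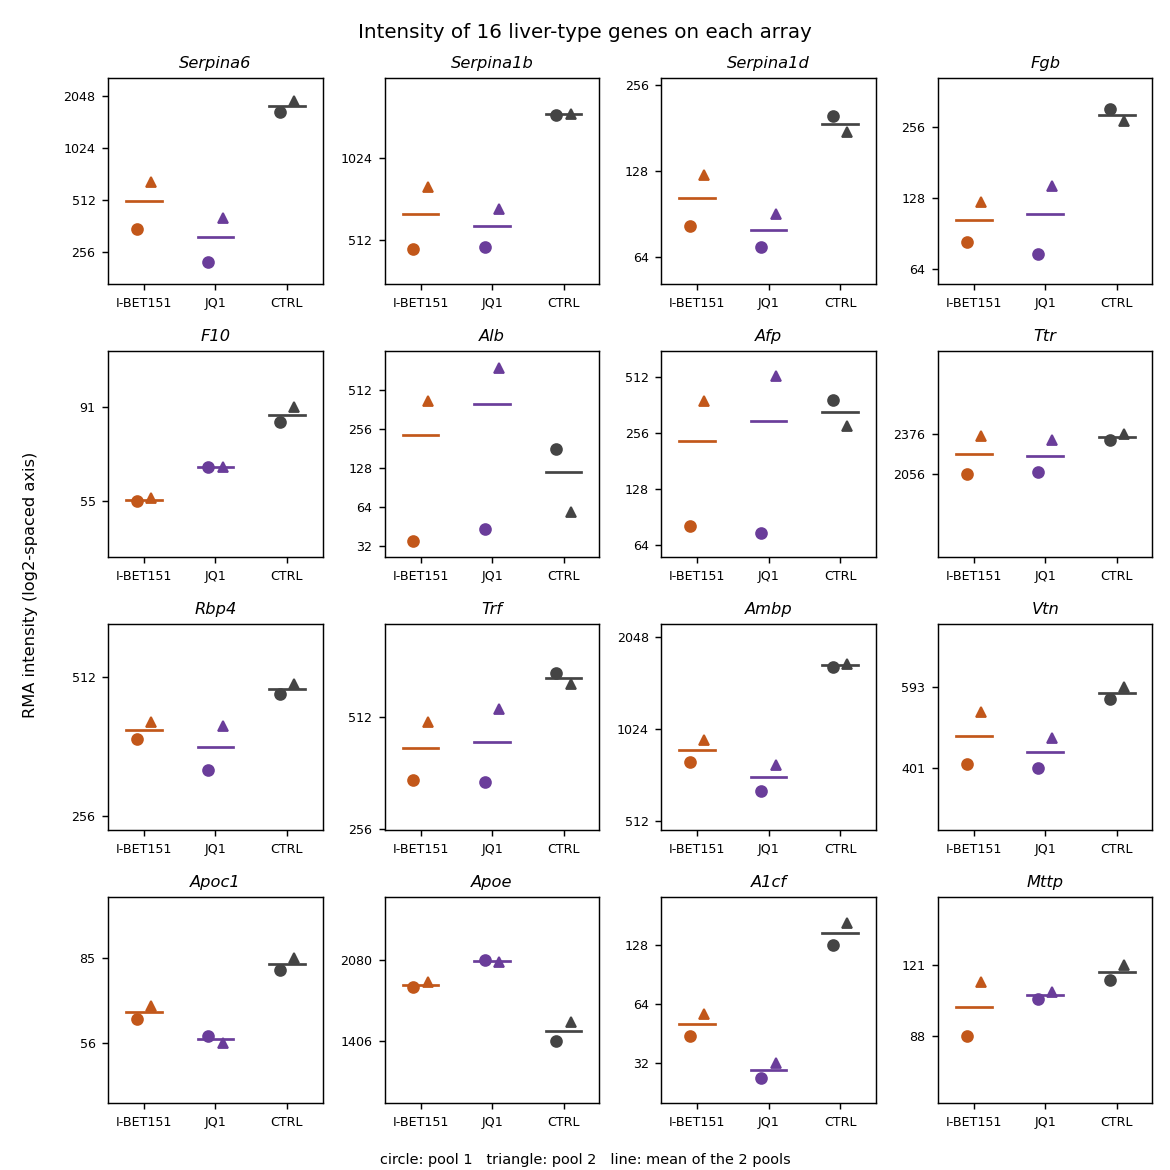
Each panel gives the intensity of 1 of 16 liver-type genes on the 6 arrays on a log2-spaced axis of its own, with circles for pool 1, triangles for pool 2 and a line for the mean of both. The 16 are the members that were called or had a control mean of at least 100. Serpina6, Ambp and A1cf show both inhibitor groups clear of the controls, while Alb and Afp show the pools of each inhibitor far apart.

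The serpins were lower in both inhibitor groups. Serpina6 encodes corticosteroid-binding globulin, the plasma carrier of glucocorticoids. It was at 351 and 657 with I-BET151, at 225 and 406 with JQ1, and at 1654 and 1927 in CTRL. Every inhibitor array was far below both controls, and pool 2 was the higher one in each group. Serpina6 fell 5.91-fold under JQ1 (log2 change -2.56 ± 0.41, limma adjusted p = 0.0496) and was 3.72-fold lower, not called, under I-BET151 (log2 change -1.89 ± 0.41, adjusted p = 0.120). Its call under JQ1 was lost with an intensity trend and robust prior (adjusted p = 0.0628).

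Serpina1b and Serpina1d are paralogues of the alpha-1-antitrypsin gene, whose product inhibits neutrophil elastase, and they lie side by side, with 2 genes between Serpina1b and Serpina6. Serpina1b was at 476 and 805 with I-BET151, at 485 and 668 with JQ1, and at 1482 and 1494 in CTRL. The controls agreed within 1.01-fold while the I-BET151 pools differed 1.69-fold. Its log2 change was -1.27 ± 0.29 under I-BET151 and -1.39 ± 0.29 under JQ1, neither called (limma adjusted p = 0.131 and 0.0797). Serpina1b was called under JQ1 once arrays were centred on their medians (adjusted p = 0.0391). Serpina1d was at 82 and 124, 69 and 90, and 200 and 175, in the same order of groups, with log2 changes of -0.89 ± 0.24 and -1.25 ± 0.24 (adjusted p = 0.164 and 0.0698). When the inhibitors were averaged, adjusted p was 0.0613 for Serpina1b and 0.0648 for Serpina1d. Paralogues of this family are near-identical, so the array may not separate them.

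The likeness extends to the start of the genes. The windows from 250 bases before to 50 after the gene start, taken from RefSeq (build GRCm38.p6), were 94.1% identical between Serpina1b and Serpina1d over 288 aligned bases. They are shown because both genes were lower on every inhibitor array. Capitals mark the letters GTTAAT, a half-site of the HNF1 motif, and TGTTTGC or TGTTTAC, forkhead motifs, on either strand. Each window is written 5′ to 3′ on the strand of its gene, Serpina1b from chr12:103738140-103738439 (minus strand) and Serpina1d from chr12:103773584-103773883 (minus strand).
Serpina1b: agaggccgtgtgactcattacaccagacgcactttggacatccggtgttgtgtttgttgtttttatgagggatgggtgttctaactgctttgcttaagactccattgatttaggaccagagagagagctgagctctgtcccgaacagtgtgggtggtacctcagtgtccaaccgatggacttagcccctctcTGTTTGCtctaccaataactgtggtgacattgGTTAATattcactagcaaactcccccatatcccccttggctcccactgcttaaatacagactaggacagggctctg
Serpina1d: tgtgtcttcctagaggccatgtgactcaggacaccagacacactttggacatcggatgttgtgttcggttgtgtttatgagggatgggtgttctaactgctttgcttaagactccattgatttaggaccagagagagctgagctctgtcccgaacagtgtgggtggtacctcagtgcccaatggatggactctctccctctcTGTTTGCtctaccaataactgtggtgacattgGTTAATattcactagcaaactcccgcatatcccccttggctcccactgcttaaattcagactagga
Both hold 1 HNF1 half-site and 1 forkhead match.

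Among 10 genes of clotting and fibrinolysis, F10 fell under both inhibitors and no other member was called. F10, which encodes coagulation factor X, was at 55 and 56 with I-BET151, at 66 and 66 with JQ1, and at 84 and 91 in CTRL. Its pools were nearly equal, so a modest change passed: -0.66 ± 0.06 under I-BET151 (limma adjusted p = 0.0432) and -0.41 ± 0.06 under JQ1 (adjusted p = 0.0488). The call under JQ1 was lost with each array centred on its median (adjusted p = 0.0718) and with an intensity trend and robust prior (adjusted p = 0.0619). Fgb, the fibrinogen beta chain gene, was at 83 and 123 with I-BET151, at 74 and 144 with JQ1, and at 306 and 273 in CTRL. All inhibitor arrays were below the controls, with log2 changes of -1.52 ± 0.37 and -1.49 ± 0.37 that were not called (adjusted p = 0.139 and 0.108).

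The neighbouring genes of the other fibrinogen chains were dim and not called. Fga was at 13 and 20 with I-BET151, at 13 and 21 with JQ1, and at 18 and 14 in CTRL. Fgg was at 18 and 33 with I-BET151, at 19 and 29 with JQ1, and at 45 and 31 in CTRL. Fga overlapped the controls in both inhibitor groups, whereas the JQ1 arrays of Fgg were below both controls and its I-BET151 arrays overlapped them. Proc, the gene of the anticoagulant protein C, was at 19 and 26, 21 and 20, and 31 and 35, below the controls on every inhibitor array but not called (adjusted p = 0.182 and 0.105). Serpind1, which encodes the thrombin inhibitor heparin cofactor II, followed the pools, at 28 and 53 with I-BET151 and 30 and 50 with JQ1, against 73 and 52 in CTRL. Prothrombin (F2), plasminogen (Plg), antithrombin (Serpinc1) and kininogen (Kng1) genes lay between 7 and 32 on all arrays.

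Of 10 carriers and other plasma proteins, Ambp was called. Ambp encodes a precursor that is split into the lipocalin alpha-1-microglobulin and the protease inhibitor bikunin. It was at 802 and 948 with I-BET151, at 645 and 784 with JQ1, and at 1642 and 1673 in CTRL. The groups did not overlap and the controls differed by only 1.02-fold. Ambp fell 2.33-fold under JQ1 (log2 change -1.22 ± 0.13, limma adjusted p = 0.0241) and was 1.90-fold lower, not called, under I-BET151 (log2 change -0.93 ± 0.13, adjusted p = 0.0629).

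Trf, the transferrin gene, was at 346 and 498 with I-BET151, at 342 and 539 with JQ1, and at 677 and 630 in CTRL. Vtn, which encodes the adhesive protein vitronectin, was at 409 and 526 with I-BET151, at 401 and 464 with JQ1, and at 560 and 593 in CTRL. Rbp4, the retinol carrier gene, was at 376 and 409 with I-BET151, at 321 and 401 with JQ1, and at 470 and 493 in CTRL. All 3 were below both controls on each inhibitor array, with log2 changes from -0.65 to -0.30 that were not called (adjusted p = 0.149 to 0.352). Ttr, which encodes the thyroxine and retinol-binding protein carrier transthyretin, was at 2056 and 2364 with I-BET151, at 2073 and 2329 with JQ1, and at 2328 and 2376 in CTRL. Each inhibitor group overlapped the controls, and its changes of -0.09 and -0.10 had 95% intervals of -0.35 to 0.17 and -0.36 to 0.16. The 5 endocrine markers that are not members summed to 7561 and 7062, 6820 and 7304, and 7064 and 7155, most of it from Gcg. Among them Neurod1 was at 271 and 231 with I-BET151 (not called) and at 277 and 279 with JQ1, where it rose, against 147 and 164 in CTRL. Chga was above both controls on all 4 inhibitor arrays, not called.

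Alb and Afp gave no usable group difference. The log2 change of Alb was 0.25 ± 1.85 under I-BET151 and 0.82 ± 1.85 under JQ1, with 95% intervals of -4.58 to 5.08 and -4.01 to 5.65. With pool 2 of both inhibitors left out it was -1.54 and -1.24. Afp stood at -0.90 ± 1.18 and -0.74 ± 1.18, and at -2.02 and -2.15 without these pools. Without them Serpina6 stood at -2.35 and -2.99, Serpina1b at -1.64 and -1.62, Ambp at -1.05 and -1.36 and A1cf at -1.73 and -2.43. All inhibitor arrays of these genes were below both controls, so their direction could not turn. Pool 2 was the higher pool in each, so leaving it out could only enlarge the change. With 4 arrays left no gene was called. Hemopexin (Hpx), which binds free haem, was dim at 33 and 36 with I-BET151 and 34 and 45 with JQ1, against 32 and 28 in CTRL, and was not called (adjusted p = 0.567 and 0.259).

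Alb and Afp are adjacent genes, known as targets of HNF1 and forkhead factors in fetal liver. Their start windows are shown because these genes differed most between the pools, with capitals as above, Alb from chr5:90460620-90460919 (plus strand) and Afp from chr5:90490464-90490763 (plus strand).
Alb: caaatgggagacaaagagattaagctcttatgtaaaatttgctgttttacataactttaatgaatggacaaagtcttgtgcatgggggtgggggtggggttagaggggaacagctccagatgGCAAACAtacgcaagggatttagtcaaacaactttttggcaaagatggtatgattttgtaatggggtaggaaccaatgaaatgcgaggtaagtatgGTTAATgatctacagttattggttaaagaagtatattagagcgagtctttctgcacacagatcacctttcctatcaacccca
Afp: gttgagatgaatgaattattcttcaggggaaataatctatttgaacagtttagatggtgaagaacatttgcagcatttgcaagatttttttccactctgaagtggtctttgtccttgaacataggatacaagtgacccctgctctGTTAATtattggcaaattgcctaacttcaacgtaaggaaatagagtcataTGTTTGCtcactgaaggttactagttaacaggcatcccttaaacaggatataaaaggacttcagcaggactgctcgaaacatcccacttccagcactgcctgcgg
Each holds 1 HNF1 half-site and 1 forkhead match by these letters.

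The apolipoproteins did not move as a group. Of 10 members, Apoc1 fell and Apoe rose under JQ1, and the median log2 change was 0.05 under I-BET151 and 0.20 under JQ1. Apoc1, which encodes a small protein of very-low-density lipoprotein, was at 63 and 67 with I-BET151, at 58 and 56 with JQ1, and at 80 and 85 in CTRL. Apoe, which encodes a ligand of the low-density lipoprotein receptor, was at 1827 and 1865 with I-BET151, at 2080 and 2060 with JQ1, and at 1406 and 1539 in CTRL. These neighbouring genes moved in opposite directions under JQ1. Apoc1 fell under JQ1 by 0.53 ± 0.07 on the log2 scale (limma adjusted p = 0.0323) and stood at -0.34 ± 0.07 under I-BET151 (adjusted p = 0.105). Apoe rose by 0.49 ± 0.07 under JQ1 (adjusted p = 0.0374) and stood at 0.33 ± 0.07 under I-BET151 (adjusted p = 0.112).

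Apoe is also abundant in macrophages. The other 8 macrophage markers summed to 3973 and 3861 with I-BET151, to 3706 and 3942 with JQ1, and to 3708 and 3940 in CTRL, so their sum overlapped between the groups. Single markers went both ways: C1qb was at 1456 and 1490 with I-BET151 and 1514 and 1608 with JQ1, against 1247 and 1196 in CTRL, and Csf1r was likewise above both controls on all 4 inhibitor arrays, neither called. Fcgr1 fell under both inhibitors, at 124 and 141 and at 98 and 106, against 277 and 286. The part of macrophages in the Apoe values was not tested. The other 8 apolipoproteins ranged from 11 to 125 and none was called. Apoa2, the second protein of high-density lipoprotein, followed the pools, at 67 and 119 with I-BET151 and 65 and 125 with JQ1, against 80 and 67 in CTRL. Apob, the structural protein of very-low-density lipoprotein, did likewise at 23 and 36 and at 22 and 38, against 24 and 20. Apoa4, Apoc2, Apoc3, Apoh and Apom lay between 11 and 55.

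Among the 3 genes of lipid handling inside the cell, A1cf was called. A1cf encodes an RNA-binding cofactor of the enzyme that edits Apob messenger RNA. It was at 44 and 57 with I-BET151, at 27 and 32 with JQ1, and at 128 and 166 in CTRL. The 3 groups did not overlap. A1cf fell 4.96-fold under JQ1 (log2 change -2.31 ± 0.20, limma adjusted p = 0.0174) and was 2.91-fold lower under I-BET151, just outside the threshold (log2 change -1.54 ± 0.20, adjusted p = 0.0536). Mttp, which encodes the protein that loads lipid onto apolipoprotein B, was at 88 and 112, 104 and 107, and 113 and 121, and Fabp1, the liver fatty acid binding protein gene, lay between 8 and 10 on all arrays. The enzyme genes Cps1, of the urea cycle, and Tdo2, of tryptophan breakdown, were not called: Cps1 lay between 23 and 32, and Tdo2 was at 11 on all 6 arrays.

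The start window of A1cf, chr19:31868563-31868862 (plus strand), is shown because A1cf had the lowest adjusted p of the members under JQ1. It holds 1 forkhead match and no HNF1 half-site.
A1cf: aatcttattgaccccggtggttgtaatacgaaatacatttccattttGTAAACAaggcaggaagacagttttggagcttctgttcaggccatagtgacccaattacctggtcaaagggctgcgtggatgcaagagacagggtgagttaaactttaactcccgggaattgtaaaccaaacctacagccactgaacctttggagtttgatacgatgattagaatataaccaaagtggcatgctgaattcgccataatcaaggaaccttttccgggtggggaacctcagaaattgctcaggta

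**Figure D4:**
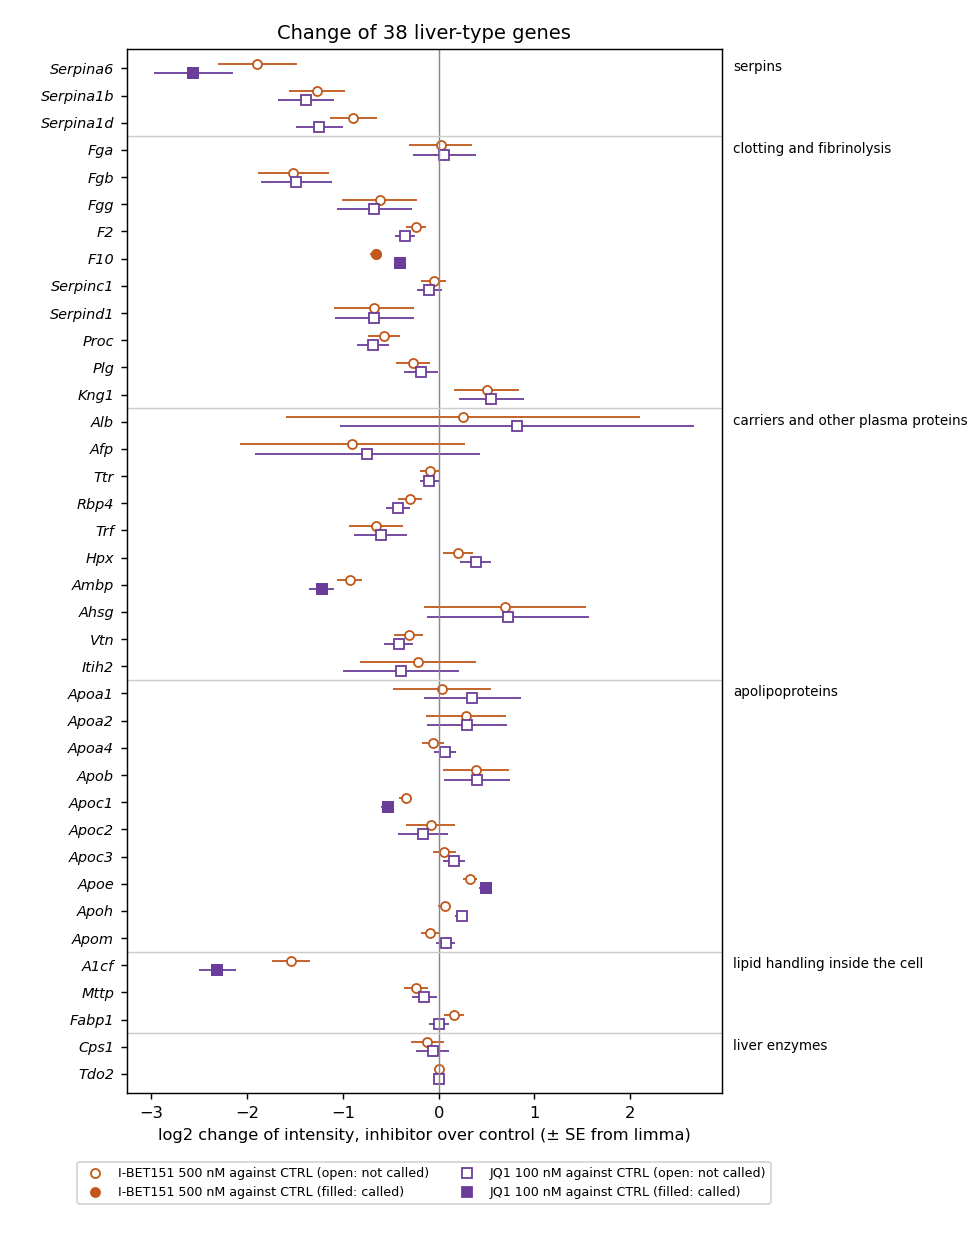
The log2 change of each of the 38 members, inhibitor over control, is plotted with its SE, I-BET151 as circles above JQ1 as squares, filled where the gene was called. Serpina6 and A1cf lie farthest to the left, F10 is filled for both compounds, Apoe is the called gene to the right of 0, and the error bars of Alb and Afp span 0 widely.

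The compounds differed in dose, 100 nM for JQ1 and 500 nM for I-BET151, so their values stand side by side and a difference could not be tied to structure. None of the 38 members was called for JQ1 against I-BET151 in limma (0% of all genes), and 4 had an unadjusted p under 0.05, against 6.71% of all genes. By 2-fold or more with no overlap, 0 members and 0.0167% of all genes differed. The 4 with a low unadjusted p were F10, Apoc1, Apoh and A1cf, named after their values were seen. A1cf was 1.70-fold lower with JQ1 than with I-BET151 (log2 difference -0.77, 95% interval -1.28 to -0.26, adjusted p = 0.718). F10 was 1.19-fold higher (0.25, interval 0.08 to 0.42, adjusted p = 0.718). For Serpina6 the difference was -0.67 with an interval of -1.74 to 0.41, which leaves room for a sizeable difference in either direction.

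Among 48 other liver genes outside the members, 2 were called under I-BET151 (4.17%) and 4 under JQ1 (8.33%), all lower. Of all genes, 0.87% and 2.67% were called lower. The median changes of the 48 were -0.07 and -0.03. Slc2a2, the glucose transporter of hepatocytes and beta cells, was at 99 and 125 with I-BET151, at 76 and 76 with JQ1, and at 544 and 655 in CTRL, and Serpinf1, which encodes pigment epithelium-derived factor, at 341 and 318, 263 and 264, and 670 and 673. Both fell under each inhibitor (log2 changes of -2.42 and -2.97 for Slc2a2, and -1.03 and -1.35 for Serpinf1). Arg1, the arginase gene of the urea cycle, was at 136 and 162 with I-BET151 and at 97 and 117 with JQ1, against 246 and 237 in CTRL, and fell under JQ1, as did Serpina10, an inhibitor of factor X, at 39 and 39 and at 27 and 39, against 83 and 71. Serpinf1 is also widely made by mesenchyme, and the 8 mesenchyme markers summed to 5490 and 5517 with I-BET151 and to 5234 and 5117 with JQ1, against 7105 and 7362 in CTRL. Their part in the change of Serpinf1 was not tested.

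Of 23 liver transcription factors, Hnf4a fell under both inhibitors and Nr0b2 under JQ1. The share called was 4.35% under I-BET151 and 8.7% under JQ1, against 0.87% and 2.67% of all genes called lower. Hnf4a, which directs much of the hepatocyte programme and is also made in the pancreatic epithelium, was at 141 and 132 with I-BET151, at 120 and 127 with JQ1, and at 276 and 286 in CTRL. Its pools did not follow the Alb split. Nr0b2, a nuclear receptor gene that lacks a DNA-binding domain and is a target of HNF4A, was at 56 and 59, 54 and 50, and 102 and 82. Foxa2, Foxa3 and Cebpa, named after their values were seen, were not called: Foxa2 was at 279 and 297 with I-BET151 and at 291 and 356 with JQ1, against 288 and 289 in CTRL, and Foxa3 at 106 and 112 and at 107 and 106, against 117 and 113. Cebpa, the gene of C/EBP alpha, was at 89 and 94 with I-BET151 and at 86 and 105 with JQ1, against 99 and 100.

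The same motif letters were counted in all start windows. RefSeq windows were found for 29 of the 38 members, 33 windows in all. GTTAAT was in 11 of the 33 (33.3%), against 7.1% of 32851 windows of all genes, and TGTTTGC or TGTTTAC in 15 (45.5%), against 8.48%. AAAGTCC, a core of the HNF4 motif, was in 1 (3.03%), against 4.21%. The list was drawn up as liver-type secreted and HNF-target genes, so a higher share of HNF1 and forkhead letters can follow from that choice itself. Both strands were searched. Matches of different motifs were counted separately, overlapping or not, and a match is a description of the window, not a bound site. The HNF1 half-site was in the windows of Afp, Alb, Apoc2, Apoe, F2, Fabp1, Fga, Fgb, Serpina1b, Serpina1d and Vtn, a set that includes genes lower on all inhibitor arrays (Fgb, Serpina1b), higher on all of them (Apoe), split by pool (Alb, Afp) and close to the floor (Fabp1).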

How the data were processed

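Gene expression was measured on 6 Affymetrix arrays, 2 pools in each of 3 groups. Intensities were deposited as whole linear numbers after RMA, per the submitters' processing notes, with the steps of linearising and rounding not stated there. Of 24972 rows, 958 carried no single gene symbol and 4 repeated a gene, which left 24010 genes. Log2 intensities of all 6 arrays were fitted with limma 3.58.1 in R 4.3.3 without a filter or block, with Benjamini-Hochberg adjustment over all genes. The procedure was run on simulated data with independent noise for each gene and array and with changes added to the JQ1 arrays. Those data held no split between pools shared by genes, so the run does not show how the fit behaves with one. The number of arrays limits the precision. Members called or with a control mean of at least 100 were described in full, the others by their values or range. The members, lists and tests were chosen with earlier results of these data known. Pool numbers were not taken to pair arrays, since across all genes the deviations of same-numbered arrays were nearly uncorrelated (r from -0.04 to -0.016), although those of the members ran together between inhibitors and opposite to CTRL. Alternatives were another pseudocount, scaling, filter, prior, block and set of arrays. Start windows came from RefSeq GRCm38.p6.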

Additional observations from a re-analysis of the deposited data

How the results depend on the processing

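With all genes and arrays, 1 member was called under I-BET151, 6 under JQ1, 6 for the mean of both and 0 for JQ1 against I-BET151, where 272, 912, 1181 and 0 of all genes were called. With genes below the median intensity left out the members called were 9, 10, 10 and 0, beside 1438, 2373, 2689 and 0 of all genes, and the members' median log2 change was -0.34 under I-BET151 and -0.42 under JQ1; fewer genes were then tested. Under I-BET151, 3 members were called with a pseudocount of 16 (661 genes in all), 3 with arrays centred on their medians (533) and 5 with an intensity trend and robust prior (1806). Under JQ1 these were 6 (1615), 7 (1391) and 7 (2617), and for the mean 8 (1963), 9 (1738) and 9 (3006). With only the arrays of the groups compared, 0 members and 0 of all genes were called under I-BET151 and under JQ1. There were then fewer arrays for the spread. With the replicate block, pool number 1 or 2, 0 members and 0 of all genes were called in each comparison in limma, and the pool numbers are not known to pair arrays. By a 2-fold change with no overlap and no test, 4 members passed under I-BET151 and 6 under JQ1. Leaving out an array together with dim genes, leaving out both inhibitors' pool 2, and a covariate of log2 Alb were chosen after seeing the data. With a covariate of log2 Alb, 0 members and 0 of all genes were called in each comparison. With all arrays, 10 of 38 members had an unadjusted limma p under 0.05 with I-BET151, 14 with JQ1 and 14 for the mean. The shares of all genes were 18.9%, 21.6% and 22.7%.

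When each array was left out in turn, 0 members were called in each comparison, and the members' median ranged from -0.37 to -0.07 under I-BET151 and from -0.35 to -0.02 under JQ1. With dim genes left out as well, 3 to 7 members were called under I-BET151 (7 without I-BET151 replicate 2, JQ1 replicate 1 or JQ1 replicate 2, and 3 without the other arrays), 5 to 10 under JQ1 (10 without I-BET151 replicate 1 or 2) and 5 to 12 for the mean (12 without I-BET151 replicate 2, 11 without JQ1 replicate 2). The median was then -0.87 to -0.24 under I-BET151 (-0.87 without I-BET151 replicate 2, -0.39 and -0.56 without CTRL replicates 1 and 2) and -0.93 to -0.28 under JQ1 (-0.93 without JQ1 replicate 2, -0.46 and -0.41 without CTRL replicates 1 and 2).

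Direction turned for Alb, Afp and Ttr alone among the 16 genes with a value under each alternative. The other genes had no overlap between inhibitor and control arrays, so leaving out arrays could not turn them. Under I-BET151 the log2 change of Alb ranged from -1.54 to 2.05 as arrays were left out (-1.54 without I-BET151 replicate 2 and -0.56 without CTRL replicate 2), that of Afp from -2.02 to 0.22 and that of Ttr from -0.19 to 0.0074, the last 2 turning without I-BET151 replicate 1. Under JQ1 Alb ranged from -1.24 (without JQ1 replicate 2) to 2.89, and Afp from -2.15 to 0.67 (without JQ1 replicate 1). For the mean, Alb ranged from -0.50 to 1.57, with -0.36 without I-BET151 replicate 2, -0.50 without JQ1 replicate 2 and -0.28 without CTRL replicate 2. With pool 2 of both inhibitors left out Alb was at -1.54, -1.24 and -1.39. The cause was not tested. With 2 pools per group, the number of arrays limits the precision.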
